A study of Homo sapiens with 6 samples.

Results

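The genes described here are SAA1, SAA2, LCN2, C3 and CFB, 5 acute phase and complement genes of the MDA-MB-231 breast cancer line, taken by name from the 58735 genes of the table. They were chosen by measured values, since SAA1 stood very high in the unirradiated libraries, so the control levels below are a description and carry no test. The line is a basal-like breast adenocarcinoma line, its genotype is given as WT, and all 6 libraries carry the name SCR, the non-targeting shRNA control that the study calls shSCR, so no untransduced cells stand beside them. Of the libraries, 3 came from cells given 0 Gy and 3 from cells given 10 Gy of 137Cs gamma radiation, with RNA taken 24 h after the exposure and sequenced from polyA libraries. The comparison asks how the level of each gene differed a day after irradiation. Nothing in the labels says that replicates came from separate cultures, so p-values measure only the spread between these libraries.

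Acute phase proteins are secreted in large amounts during inflammation, chiefly by hepatocytes, when IL-6, IL-1 and related cytokines act through STAT3, C/EBP and NF-kB. Serum amyloid A proteins, encoded by SAA1 and SAA2, are small apolipoproteins that travel on high density lipoprotein, and lipocalin 2, encoded by LCN2, binds iron-loaded bacterial siderophores. C3 is the component on which the pathways of complement activation converge, and factor B, encoded by CFB, supplies the protease of the alternative pathway C3 convertase. Epithelial and tumour cells can make all of these proteins outside the liver.

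On GRCh38 the genes lie on 4 chromosomes. SAA1 (ENSG00000173432) spans chr11:18266174-18269977 on the plus strand, and SAA2 (ENSG00000134339) lies 17530 bases away at chr11:18239223-18248643 on the minus strand. LCN2 (ENSG00000148346) is at chr9:128149071-128153455 on the plus strand, C3 (ENSG00000125730) at chr19:6677704-6730562 on the minus strand and CFB (ENSG00000243649) at chr6:31945650-31952084 on the plus strand. The longest coding transcript of SAA1 in GENCODE 29 has 4 exons, that of SAA2 4, that of LCN2 7, that of C3 41 and that of CFB 18.

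RefSeq (GRCh38.p14) promoter windows were matched for LCN2 and CFB and not for SAA1, SAA2 or C3. The 250 bases before the start that RefSeq gives for each matched gene are shown. These starts lie downstream of the outermost GENCODE 29 starts, so both windows fall inside the gene spans given above. They are shown because the proteins' known inducers act on short motifs of this kind, and capitals mark every match to the 5 motifs searched on both strands. These were the NF-kB consensus, TTGCNNAA for C/EBP factors, TTCNNNGAA for STAT factors, a pair of GAAA blocks with any 2 bases between them for interferon regulatory factors and the TATAAA box.
LCN2, chr9:128149203-128149452, plus strand: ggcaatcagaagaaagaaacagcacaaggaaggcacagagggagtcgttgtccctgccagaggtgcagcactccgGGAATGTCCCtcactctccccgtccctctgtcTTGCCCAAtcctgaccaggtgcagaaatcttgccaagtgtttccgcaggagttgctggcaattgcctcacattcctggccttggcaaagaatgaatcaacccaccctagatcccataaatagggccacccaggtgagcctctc
CFB, chr6:31945845-31946094, plus strand: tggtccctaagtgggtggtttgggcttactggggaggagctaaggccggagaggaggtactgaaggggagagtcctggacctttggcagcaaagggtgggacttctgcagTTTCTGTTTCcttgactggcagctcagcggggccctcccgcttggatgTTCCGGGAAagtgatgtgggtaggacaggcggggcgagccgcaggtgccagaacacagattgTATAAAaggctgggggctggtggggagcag
The LCN2 window held an NF-kB consensus match on the minus strand, 175 to 166 bases before the start, and a TTGCNNAA match 143 to 136 bases before it. The CFB window held the paired GAAA blocks on the minus strand at 140 to 131 bases, TTCNNNGAA at 92 to 84 bases and TATAAA at 30 to 25 bases before the start. None of these matches overlapped another. Among 35116 promoter windows of the same length, 5.21% held the NF-kB consensus, 9.05% TTGCNNAA, 3.02% the paired GAAA blocks, 6.57% TTCNNNGAA and 10.7% TATAAA. A match of letters is a description and does not show that a factor was bound.

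In the unirradiated cells the 5 genes spanned more than 3 orders of magnitude in FPKM, fragments scaled to the length of the gene and the depth of the library. SAA1 stood at 400.3, 288 and 329.7 FPKM in control replicates 1, 2 and 3, with a mean of 339 ± 56.7 FPKM (SD, n = 3). It ranked 74 among all genes and 67 among 19951 protein-coding genes, between the ribosomal protein gene RPLP2 at 354 ± 30.4 FPKM and AC116533.1 at 339 ± 16.4 FPKM. The ranges of these neighbours overlapped that of SAA1, so their order was not separated. SAA1 held 0.124% of the summed FPKM of the controls.

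SAA2 followed at 21.2, 19.5 and 18.7 FPKM, with a mean of 19.8 ± 1.27 FPKM, and ranked 2640. C3 stood at 14.6, 15.8 and 15.7 FPKM, with a mean of 15.3 ± 0.657 FPKM, and ranked 3431. LCN2 stood at 10.2, 10.2 and 9.22 FPKM, with a mean of 9.89 ± 0.585 FPKM, and ranked 4871. CFB was at 0.235, 0.26 and 0.213 FPKM, with a mean of 0.236 ± 0.024 FPKM, and ranked 16210. No range of one of these genes overlapped that of another, so the order SAA1, SAA2, C3, LCN2 and CFB held in each control library. In the irradiated libraries the ranges did not overlap either, and there C3 stood above SAA2.

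**Figure D1:**
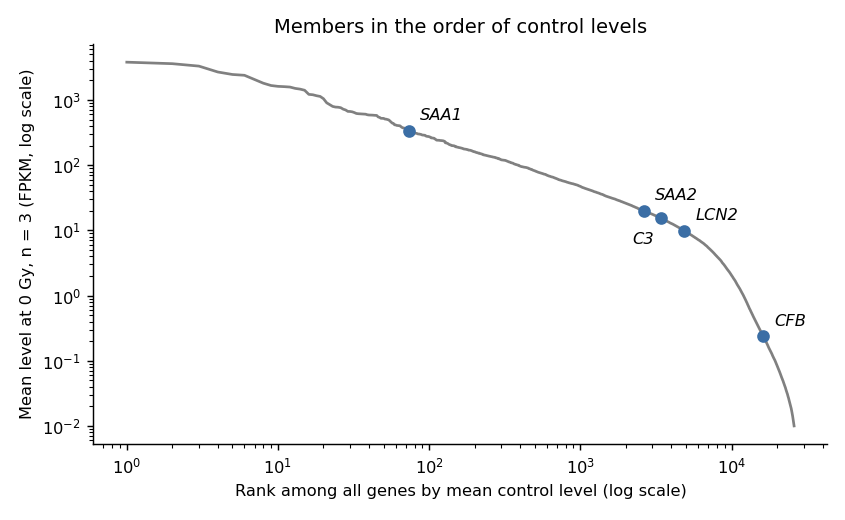
Mean control level in FPKM (log scale, n = 3) of every gene above 0.01 FPKM against its rank (log scale), as a grey line with the 5 genes as points. SAA1 lies at rank 74 with 339 FPKM, SAA2, C3 and LCN2 lie between 9.89 and 19.8 FPKM, and CFB lies at 0.236 FPKM.

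The order depended on the length that a gene is given. The deposited length equalled the union of all annotated exons for each of the 5 genes, 796 bases for SAA1, 2227 for SAA2, 1598 for LCN2, 8328 for C3 and 4997 for CFB, whereas the longest coding transcripts have 675, 1022, 848, 5263 and 2862 bases. Per base of the longest coding transcript, a length chosen after the values had been seen, the mean control levels became 400.2 for SAA1, 43.1 for SAA2, 24.3 for C3, 18.6 for LCN2 and 0.412 for CFB on the FPKM scale. The order of the control means was kept, and in the irradiated libraries SAA2 at 43.0 then stood above C3 at 35.9.

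The fragments behind these values were many for SAA1 and few for CFB. Fragments on genes totalled between 15643641 and 28861781 per library, as recovered from the steps of the FPKM values. SAA1 was counted on 3527 to 7007 fragments per library, C3 on 2022 to 5681, SAA2 on 667 to 1397, LCN2 on 251 to 523 and CFB on 20 to 52. Counting alone gave an error of 1.21% for SAA1 in control replicate 1 and 1.68% in control replicate 2, while the highest control exceeded the lowest 1.39-fold. For CFB the counting error was between 13.9% and 22.4% per library. Such errors cover counting only.

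The labelled cell line was checked against its markers. All 8 genes of the list for the line, VIM, CD44, EGFR, CAV1, KRT18, KRT8, MSN and ZEB1, passed 1 FPKM. Their summed level was 925 to 960.2 FPKM at 0 Gy and 842 to 862 FPKM at 10 Gy. On the deposited scale 4 were called lower and 1 higher at 10 Gy, beside 23.7% and 11.9% of all genes tested. KRT8 and KRT18 are keratins of simple and luminal epithelium and do not mark a basal-like line, and without them the summed level of the other 6 was 732 to 746 FPKM at 0 Gy and 637 to 652 FPKM at 10 Gy. Of 6 luminal and HER2 genes, ERBB2 and GATA3 passed 1 FPKM, while PGR was listed at 0 in every library and ESR1 had a control mean of 0.00872 FPKM. None of 10 hepatocyte genes reached a mean of 1 FPKM, with APOA2 and TTR at 0 throughout, and their summed level was 0.0469 to 0.208 FPKM at 0 Gy and 0.336 to 0.797 FPKM at 10 Gy. Of 10 leukocyte genes, CD14 alone passed, with summed levels of 1.96 to 3.06 FPKM at 0 Gy and 2.67 to 3.73 FPKM at 10 Gy, and PTPRC had a control mean of 0.00404 FPKM. In RNA of a whole culture, fewer cells with a transcript and less of it per cell cannot be told apart.

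At 10 Gy, C3 was higher and the serum amyloid and lipocalin genes did not pass the test. Of the 5 genes, 4 had a mean of at least 1 FPKM and entered the limma fit, where 1 was called higher and 0 lower at an adjusted p under 0.05. At an unadjusted p under 0.05 the count was likewise 1 higher and 0 lower. Over the 12128 genes tested, 35.6% were called in either direction, 11.9% higher and 23.7% lower.

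C3 stood at 22.8, 22.9 and 22.3 FPKM in the 3 irradiated libraries, with a mean of 22.7 ± 0.342 FPKM (SD, n = 3). Every irradiated library lay above every control, and the ratio of the means was 1.48. The log2 change on the log2(FPKM + 1) scale was 0.54 (SE 0.038, 95% interval 0.45 to 0.62, limma adjusted p = 0.000445). Its rank rose from between 3324 and 3619 in the control libraries to between 2131 and 2222 in the irradiated ones. Among all genes tested, 19.1% had irradiated libraries that all lay above the controls. C3 was called higher in all 17 other fits, with log2 changes of 0.44 to 0.78.

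SAA1 stood at 294, 275 and 294 FPKM after 10 Gy, with a mean of 288 ± 11.0 FPKM. Control replicates 1 and 3 lay above all irradiated libraries and control replicate 2 lay among them, so the groups overlapped. The ratio of the means was 0.848, and the log2 change was -0.23 (SE 0.11, 95% interval -0.48 to 0.031, limma adjusted p = 0.147). The control levels that led to the choice of SAA1 are the other side of this comparison, which is therefore not independent of the choice. Without control replicate 2 the change was -0.34 with an adjusted p of 0.031, and without control replicate 1 it was -0.10, so these controls decide the call and the size. The adjusted p over the alternatives lay between 0.031 and 0.865.

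SAA2 stood at 21.0, 19.2 and 19.1 FPKM after 10 Gy, with a mean of 19.8 ± 1.07 FPKM. The irradiated values lay inside the range of the controls. The log2 change was -0.0013 (SE 0.056, 95% interval -0.13 to 0.13, limma adjusted p = 0.989). SAA2 was called in none of the 17 other fits, where the adjusted p lay between 0.0624 and 0.996.

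LCN2 stood at 10.9, 9.67 and 11.6 FPKM after 10 Gy, with a mean of 10.7 ± 0.991 FPKM. Irradiated replicates 1 and 3 lay above all controls and irradiated replicate 2 lay among them. The log2 change was 0.11 (SE 0.07, 95% interval -0.057 to 0.27, limma adjusted p = 0.267). With the libraries scaled to an equal sum of FPKM (TPM) the change was 0.24 with an adjusted p of 0.041, and with upper quartile scaling 0.34 with an adjusted p of 0.0113, so LCN2 was called higher under these scalings.

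CFB stood at 0.348, 0.351 and 0.434 FPKM after 10 Gy, with a mean of 0.378 ± 0.0491 FPKM. Each irradiated library lay above each control, as was true of 17.6% of the 8086 genes of a mean between 0.1 and 1 FPKM. The counts were 25, 20 and 23 fragments at 0 Gy and 52, 32 and 47 at 10 Gy. Pooled and scaled to depth, 131 fragments against 68 gave a ratio of 1.61, with an exact 95% interval of 1.19 to 2.19 that covers counting error only. The two-sided exact permutation test over the libraries gave p = 0.1, the smallest that 3 against 3 allow. CFB lay below the limit on mean level and so had no limma test. Without that limit, the log2 change was 0.16 (SE 0.051) with a limma adjusted p of 0.138, in a fit that called 3.47% of 31650 genes higher.

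**Figure D2:**
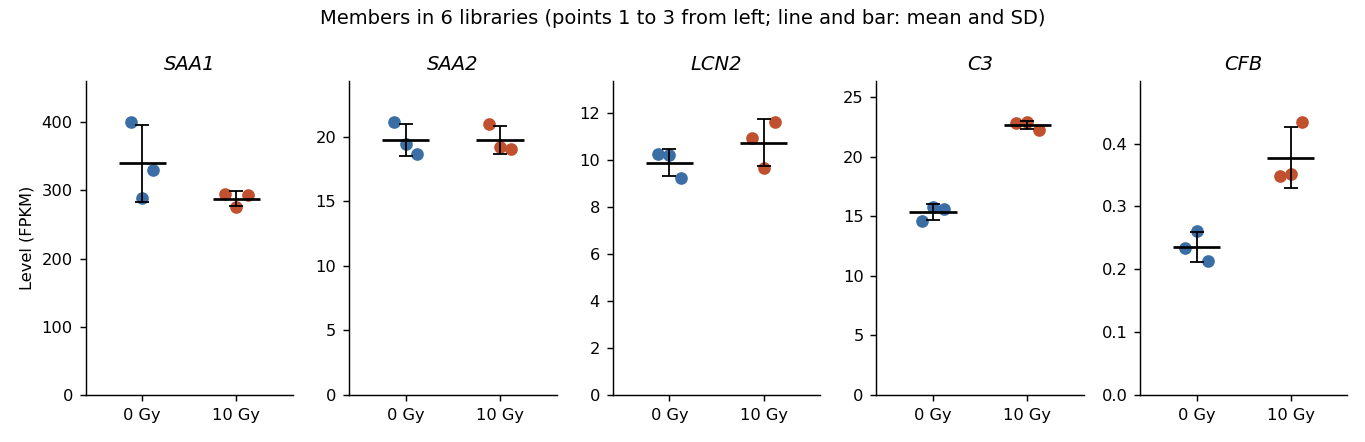
Level in FPKM (y axis from 0, one scale per gene) of the 5 genes in the 3 libraries at 0 Gy (blue) and the 3 at 10 Gy (red), with replicates 1 to 3 from left to right and lines and bars for the mean and SD. The groups do not overlap for C3 and CFB and overlap for SAA1, SAA2 and LCN2.

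The summed FPKM of a library was 269611 to 278380 at 0 Gy and 246920 to 254918 at 10 Gy. TPM scaling equalises it and so raises irradiated values relative to controls. Upper quartile scaling divides by the upper quartile of the genes above 0 in each library. Its factors were 1.02 to 1.17 at 0 Gy and 0.848 to 0.953 at 10 Gy, which raises irradiated values too. These factors depend on how many genes were detected, 22169 to 23975 at 0 Gy and 24876 to 26496 at 10 Gy. The median log2 change of all genes tested was -0.039 on the deposited scale, -0.034 with median-of-ratios scaling, 0.11 with TPM and 0.18 with upper quartile scaling. Relative to that median, C3 was 0.57 to 0.60 higher under the 4 scalings and LCN2 was 0.13 to 0.16 higher. SAA2 lay 0.020 to 0.067 above the median and SAA1 0.15 to 0.20 below it. The sign of the SAA1 change itself turned with upper quartile scaling, to 0.031, and that of SAA2 turned under 3 scalings. The share of called genes that were higher was 33.4% on the deposited scale, 76.9% with TPM and 97.0% with upper quartile scaling. Calls of higher genes were more frequent with TPM, at 3232 of 16391 genes, and with upper quartile scaling, at 3935 of 12159. On the deposited scale they were 1443 of 12128.

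**Figure D3:**
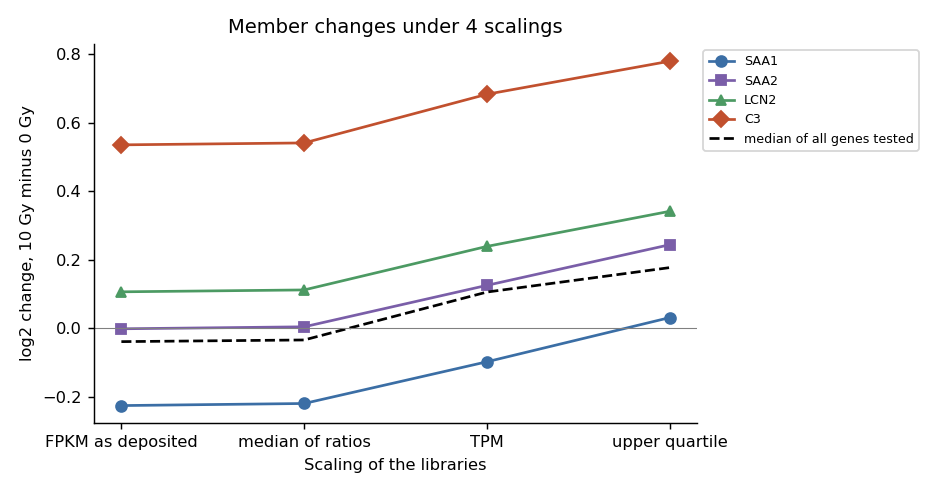
Log2 change at 10 Gy minus 0 Gy (y axis) of SAA1, SAA2, LCN2 and C3 under 4 scalings of the libraries (x axis), with the median of all genes tested as a dashed line. The genes keep their order and move with the median, and SAA1 crosses 0 with upper quartile scaling.

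SAA1 and SAA2 are related neighbours that share part of their sequence, and a fragment from a shared stretch can belong to either. Of 862 distinct 50-base stretches in the coding transcripts of SAA1, 402 (46.6%) also occurred in those of SAA2, and the same 402 were 17.9% of the 2240 of SAA2. SAA4, the constitutive member of the cluster, shared 0 with either. How shared fragments were counted is not given in the sources used here, so the split between SAA1 and SAA2 is uncertain.

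The ratio of SAA1 to SAA2 in FPKM was 18.9, 14.8 and 17.7 at 0 Gy and 14.0, 14.3 and 15.4 at 10 Gy. Control replicate 2 lay among the irradiated libraries. The mean ratio was 17.1 ± 2.11 at 0 Gy and 14.6 ± 0.731 at 10 Gy, a log2 difference of -0.22 (two-sided exact permutation p = 0.2, smallest possible 0.1). The SAA1 control levels that led to the choice of the genes are part of this ratio, which is not independent of that choice. By fragments alone, without division by length, the mean ratio was 6.12 ± 0.755 at 0 Gy and 5.21 ± 0.261 at 10 Gy, with the same log2 difference. The ratios differ between the scales by the ratio of the deposited lengths, and SAA1 led on both.

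**Figure D4:**
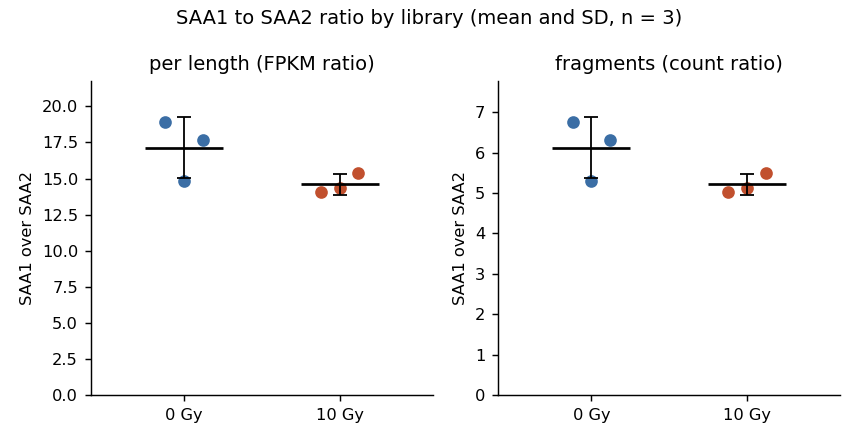
Ratio of SAA1 to SAA2 in each library at 0 Gy (blue) and 10 Gy (red), from FPKM (left) and from fragments (right), with the mean and SD of 3 libraries and axes from 0. The means are 17.1 and 14.6 from FPKM and 6.12 and 5.21 from fragments, and control replicate 2 lies among the irradiated libraries.

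Other members of the locus were low. SAA4 was counted on 4, 3 and 5 fragments at 0 Gy and 12, 9 and 11 at 10 Gy. Its pooled ratio was 2.23 (exact 95% interval 1.12 to 4.75, counting error only). Each irradiated library lay above each control, as was true of 17.6% of the 8086 genes of a mean between 0.1 and 1 FPKM. The two-sided exact permutation test over the libraries gave p = 0.1, the smallest possible. In the fit without the limit on low genes its log2 change was 0.36 with a limma adjusted p of 0.0307. That fit called 3.47% of 31650 genes higher. The readthrough gene SAA2-SAA4, which overlaps SAA2 by 9413 bases on the same strand, had 2 fragments in all controls and 6 in all irradiated libraries. How fragments in this overlap were counted is not given, which also leaves the level of SAA2 and its ratio to SAA1 uncertain. RNA5SP334, a small RNA pseudogene inside SAA1 on its strand, was counted on only 5, 2 and 0 fragments at 0 Gy and 16, 5 and 4 at 10 Gy. Its mean was 1.03 FPKM at 0 Gy and 2.81 FPKM at 10 Gy, and it was not called (limma adjusted p = 0.115).

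The genes beside the 5 were described in the same way. HPS5, 8690 bases from SAA1, had a mean of 7.73 FPKM at 0 Gy and 7.67 FPKM at 10 Gy. C9orf16, 6804 bases from LCN2, was not called, and CIZ1, 12608 bases from it, was lower with a log2 change of -0.14 (limma adjusted p = 0.0178), which turned to 0.11 with upper quartile scaling. GPR108 overlaps the start of C3 by 649 bases on the same strand and stood at 16.6 FPKM at 0 Gy and 16.2 FPKM at 10 Gy, without a call. TRIP10, 7362 bases from C3, had a log2 change of -0.25 (limma adjusted p = 0.00454), which turned to 0.001 with upper quartile scaling, and AC008760.1, 17730 bases away, was not called. NELFE ends 2 bases after CFB on the other strand and had a log2 change of -0.25 (limma adjusted p = 0.0124), or -0.0047 with upper quartile scaling, while SKIV2L, DXO and STK19 within 20 kb of CFB were not called. C2, the classical pathway counterpart of factor B, overlaps CFB by 23 bases and was counted on 24, 18 and 35 fragments at 0 Gy and 50, 27 and 34 at 10 Gy, with overlapping groups. AL645922.1, which overlaps CFB by 6399 bases on the same strand, was listed at 0 throughout. How fragments in such overlaps were counted is not given, so the level of CFB is uncertain to that extent.

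The 5 tested genes whose profile over the 6 libraries was most like that of SAA1 were MPP1, GALK1, CLPP, GUK1 and THOP1, with Pearson's r between 0.990 and 0.993 on the log2(FPKM + 1) scale. All points of these correlations share the libraries, and they were picked for this likeness, so that each was highest in control replicate 1, as SAA1 was, follows from the choice. MPP1, for example, stood at 5.65, 4.71 and 5.02 FPKM at 0 Gy and 4.72, 4.56 and 4.63 FPKM at 10 Gy. The same measure was 0.48 for SAA2, -0.17 for LCN2 and -0.71 for C3.

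Among acute phase proteins at large, 6 of 24 passed 1 FPKM, of which 0 were called higher and 1 lower. Their median log2 change was -0.068, beside -0.039 for all genes tested. SAA1, SAA2 and LCN2 were among those tested, so these counts and the median reuse values given above and are not independent of the choice of SAA1. The others were PTX3, SERPINA1 at -0.13 and FN1 at 0.18, and SERPINA1 and FN1 were not called. Over all genes tested 11.9% were called higher and 23.7% lower, and the counts of each list below stand beside these shares. PTX3, a pentraxin made outside the liver, stood at 41.7, 38.6 and 37.3 FPKM at 0 Gy and 32.0, 28.2 and 32.6 FPKM at 10 Gy. Its log2 change was -0.33 (SE 0.064, limma adjusted p = 0.00765), and it was -0.083 and uncalled with upper quartile scaling. CRP, the pentraxin of the liver response, was listed at 0 in every library. Of the proteins that fall during the response, 0 of 6 were tested, and the highest, APOA1, had 3, 0 and 6 fragments at 0 Gy and 27, 6 and 6 at 10 Gy. Its mean at 10 Gy was 0.353 FPKM, and 0.213 FPKM without irradiated replicate 1.

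Among complement components 4 of 28 genes passed 1 FPKM, and 2 were called higher and 0 lower, with a median log2 change of 0.34. One was C3. The other was C1R, a protease that starts the classical pathway, at 1.64, 1.6 and 1.52 FPKM at 0 Gy and 2.29, 2.33 and 2.32 FPKM at 10 Gy, with a log2 change of 0.36 (SE 0.054, limma adjusted p = 0.00327). CFD, the protease that cleaves factor B, changed by 0.33 with an adjusted p of 0.0644, and CFP, which stabilises the alternative pathway convertase, by 0.14 with an adjusted p of 0.112. Under TPM 5 components were called higher and with upper quartile scaling 4. Over all genes tested these scalings called 3232 of 16391 and 3935 of 12159 genes higher. C1S, the partner of C1R, lay below the limit, with 96, 60 and 84 fragments at 0 Gy and 204, 118 and 110 at 10 Gy and a pooled ratio of 1.5 (exact 95% interval 1.28 to 1.77, counting error only). Over the libraries the two-sided exact permutation test of C1S gave p = 0.1, the smallest possible. The fit without the limit gave C1S a limma adjusted p of 0.161. C1S was named outside the rules given below, and components below the limit did not all rise. C5 had a pooled ratio of 1.02 (exact 95% interval 0.851 to 1.21, counting error only). C4A and C4B, at 16 fragments or fewer per library, had overlapping groups. MASP2 was higher without overlap, with means of 0.415 FPKM at 0 Gy and 0.704 FPKM at 10 Gy. C8G was lower without overlap, with means of 0.597 FPKM at 0 Gy and 0.358 FPKM at 10 Gy.

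Of 15 complement inhibitors 7 were tested, with 0 called higher, 3 lower and a median log2 change of 0.044. The shares over all genes tested were 11.9% higher and 23.7% lower. THBD, thrombomodulin, stood at 18.4, 19.5 and 18.9 FPKM at 0 Gy and 14.1, 14.0 and 14.0 FPKM at 10 Gy, a log2 change of -0.41 (SE 0.032, limma adjusted p = 0.000586). CD59, which blocks the membrane attack complex, changed by -0.17 (SE 0.032, limma adjusted p = 0.0074), turning to 0.079 with upper quartile scaling, where THBD was at -0.16 and uncalled. The third was CD55, which speeds the decay of convertases, at -0.15, named after its values had been seen, and it turned to 0.099 with that scaling. CD46, C4BPB and CLU were among those not called. Of 12 complement receptors 3 were tested, and C1QBP, a C1q-binding mitochondrial protein, was called lower at -0.26 (limma adjusted p = 0.00158), a change of -0.0018 with upper quartile scaling.

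The cytokines that induce acute phase genes moved in both directions. Of 10 genes 7 were tested, with 2 higher, 2 lower and a median log2 change of -0.038. IL11, an IL-6 family cytokine, rose from 79.7, 73.2 and 72.1 FPKM to 110.1, 101.3 and 106 FPKM, a log2 change of 0.49 (SE 0.049, limma adjusted p = 0.000862). IL1B rose from 3.17, 3.26 and 2.95 FPKM to 4.99, 4.46 and 4.10 FPKM, a log2 change of 0.42 (SE 0.068, limma adjusted p = 0.00428). The lower genes were LIF at -0.26 and CLCF1 at -0.41, also of the IL-6 family and named after their values had been seen, which were at -0.012 and -0.16 and uncalled with upper quartile scaling. IL6 itself, at 20.6 FPKM at 0 Gy and 18.7 FPKM at 10 Gy, was not called (log2 change -0.14, limma adjusted p = 0.0881).

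A list of 16 genes held cytokine receptors, among them those of interferon gamma, together with the shedding protease ADAM17 and the antagonist IL1RN, and 12 were tested, with 2 called higher, 0 lower and a median log2 change of 0.025. TNFRSF1B, a TNF receptor, rose from 2.81, 2.76 and 2.55 FPKM to 4.14, 4.48 and 4.37 FPKM (log2 change 0.52, SE 0.052, limma adjusted p = 0.000838). IL1R1, the signalling receptor for IL-1, changed by 0.29 with an adjusted p of 0.0289, a call kept in 11 of 16 other fits. With TPM 7 genes of the list were called higher and with upper quartile scaling 6. Of all genes tested, 3232 of 16391 were called higher with TPM and 3935 of 12159 with upper quartile scaling.

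Among 26 transcription factors and signalling genes of the response 22 were tested, with 4 higher, 4 lower and a median log2 change of -0.025. ELF3, an epithelial ETS factor, rose from 0.750, 0.787 and 0.693 FPKM to 1.34, 1.44 and 1.38 FPKM (log2 change 0.45, limma adjusted p = 0.00311). Its control mean of 0.743 FPKM lay below the limit on mean level, which ELF3 passed only through the irradiated libraries. BCL3, an atypical IkB protein, rose from 14.9, 14.3 and 13.6 FPKM to 19.5, 19.5 and 18.4 FPKM (log2 change 0.40, limma adjusted p = 0.00105). NFKBIA, the gene of the inhibitor IkB alpha, was lower, at 65.5, 60.4 and 61.1 FPKM at 0 Gy and 51.6, 52.2 and 51.8 FPKM at 10 Gy (log2 change -0.26, limma adjusted p = 0.00269), and was at -0.0064 with upper quartile scaling. The other calls, named after their values had been seen, were JAK1 and PIAS3 among the higher genes and SOCS3, NFKB1 and NFKBIZ among the lower ones. None of these lower genes was called lower with upper quartile scaling. The JAK1 call was kept in 9 of 17 other fits and the PIAS3 call in 16 of 17. Without irradiated replicate 2 only 1 gene of the list was called higher, and ELF3 then fell below the limit on mean level and was not tested. ELF3 was called higher in all 15 other fits that tested it. STAT3, CEBPB and RELA were not called.

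Receptors and partners of the SAA and LCN2 proteins were tested for 6 of 13 genes, with 0 higher, 1 lower and a median log2 change of 0.024. The list held TANK, which is no receptor or partner of these proteins, and without it 5 of 12 genes were tested, with the same calls and a median of 0.0059. MMP9, whose protein forms a complex with lipocalin 2, stood at 1.99, 1.00 and 1.92 FPKM at 0 Gy and 0.888, 0.844 and 0.850 FPKM at 10 Gy. Its log2 change was -0.48 (SE 0.15, limma adjusted p = 0.0444), a call kept in 8 of 16 other fits. MMP9 passed the limit on mean level only through the controls, since its mean at 10 Gy was 0.861 FPKM. Of 16 antimicrobial epithelial secretions 1 was tested, the protease inhibitor SLPI, which was not called (limma adjusted p = 0.875).

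**Figure D5:**
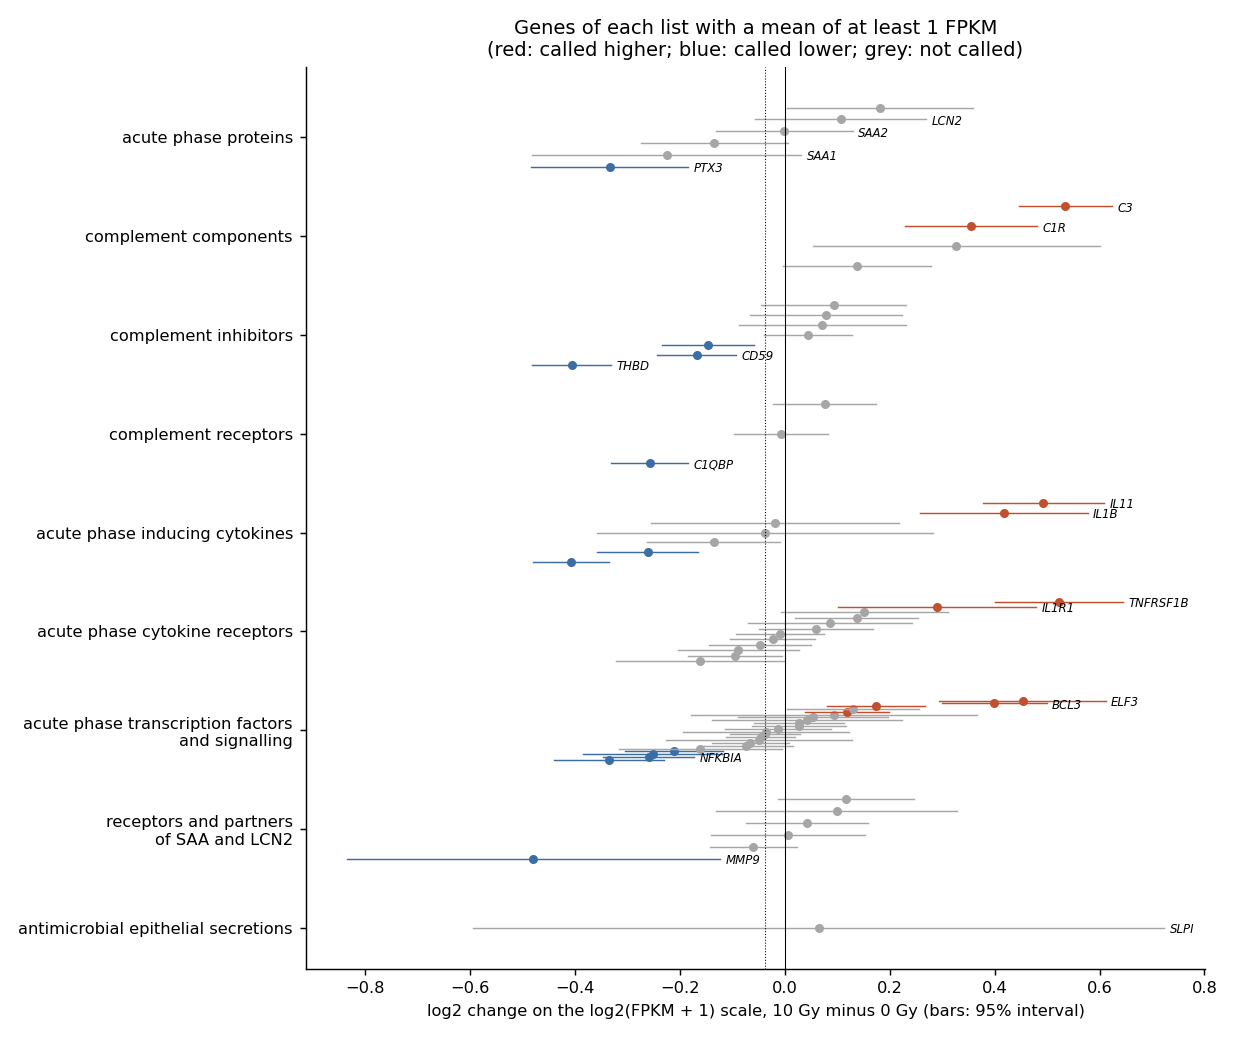
Log2 change on the log2(FPKM + 1) scale at 10 Gy minus 0 Gy (x axis) with its 95% interval for every gene of the lists with a mean of at least 1 FPKM, by list, coloured by call, with the median of all genes tested as a dotted line. Called genes are red where higher, as C3 at 0.54, and blue where lower, as THBD at -0.41.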

How the data were processed

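MDA-MB-231 libraries were grouped by treatment as labelled, 3 at 0 Gy and 3 at 10 Gy. The authors deposited FPKM values from paired-end polyA libraries, and the submitters' processing notes name HISAT2 and GRCh38. The counting program, its use of strand and its handling of fragments shared by paralogs or by overlapping genes are not given in the sources used here. Gene coordinates matched GENCODE 29. Whole fragments were recovered from the FPKM steps, within 0.1 fragment for 100% of values, and were used only for depth, ratios and counting intervals.

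Levels were compared with limma 3.58.1 in R 4.3.3 on log2(FPKM + 1), a scale that understates changes of low genes, with the variance trend on and without the genes whose mean was under 1 FPKM, which left 12128. Benjamini-Hochberg adjusted p-values under 0.05 were called. For single ratios and for CFB, SAA4 and C1S, exact permutation tests (two-sided) were run in Python 3.11.15. The procedure was tested on simulated data.

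The members, tests and 14 gene lists were chosen with earlier results of these data known. Named genes were the members; per list the called gene with the highest mean and up to 2 with the largest change, or the highest gene where none was called; genes next to SAA1 in level, the 5 most like it in profile; and expressed neighbours within 20 kb. Some genes, C1S among them, were named outside these rules. Alternatives covered pseudocounts, filters, scalings, the moderation of variances, each library left out and a replicate block.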

Additional observations from a re-analysis of the deposited data

How the results depend on the processing

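Across 17 other fits C3 kept its call. With upper quartile scaling SAA1 turned to 0.031, and SAA2 turned to 0.24, to 0.13 with TPM and to 0.0045 with median-of-ratios scaling, all uncalled. LCN2 became called with TPM at 0.24 and with upper quartile scaling at 0.34, which made 2 members called higher. Among all genes tested, TPM called 3232 of 16391 higher and upper quartile scaling 3935 of 12159. The CFB change moved from 0.16 to 0.51 with a pseudocount of 0.1, 0.039 with 5, 0.43 with TPM and 0.22 with upper quartile scaling. Leaving out each library gave SAA1 changes of -0.34 to -0.10, SAA2 changes of -0.043 to 0.046, and 0 to 1 members called lower, the 1 being SAA1 without control replicate 2. Of 340 list counts under these fits, 293 stayed within 1.5 times and 47 moved, 23 of them under TPM or upper quartile scaling. The 293 include counts of 0 that stayed at 0, as for the negative acute phase proteins, of which 0 were tested in the main fit. Such counts had little room to move and say little about stability. The cause of the moves was not tested.

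Libraries with the same replicate number did not deviate together, with correlations of -0.041, -0.035 and -0.10, so the numbers were not taken as pairs. A replicate block changed no call of a member. With it the limma adjusted p was 0.0871 for SAA1 and the SAA1 change stayed at -0.23. The SAA1 to SAA2 ratio stayed at -0.22 (exact sign-flip p = 0.25). That p is the smallest this test can give here, so it could not have passed and decides nothing. Over all genes tested, the block gave 1137 genes called higher and 2366 lower, beside 1443 and 2874 without it.

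CFB rested on 20 to 52 fragments per library and SAA4 on 3 to 12, where counting error alone is large. The values without TANK, without KRT8 and KRT18 and, for APOA1, without irradiated replicate 1 were chosen after seeing the data.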
